A study of Homo sapiens with 8 samples.

Results

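The genes described here are the oxygen-sensing pathway of the hypoxia-inducible factors (HIF) and classic hypoxia targets, 10 genes in all: the HIF subunits HIF1A, EPAS1 and ARNT, the regulators EGLN1, EGLN3, HIF1AN and VHL, and the targets VEGFA, CA9 and ADM. They were chosen by symbol, and 9 of the 10 had a value, each from 1 probe set, out of 18404 genes measured. CA9 was not analysed here. The samples were 8 cultures of HepG2, an established human liver tumour cell line, each read on its own whole-transcript array. In 4 cultures the cells had been exposed to 0.5 mM hydrogen peroxide (H2O2) for 60 minutes so as to make them senescent, that is, durably arrested in the cell cycle. The other 4 cultures, which are untreated, received medium alone, and the design text calls the cultures of a group biological replicates. After washing, both kinds of culture were kept for 5 days before the senescent phenotype was assessed, and the labels give no separate time for taking RNA. All cultures share 1 tumour line, so they stand for no other hepatocyte source.

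HIF is a pair of proteins, an oxygen-regulated alpha subunit (encoded by HIF1A or EPAS1) and the stable beta subunit encoded by ARNT. When oxygen is plentiful, prolyl hydroxylases of the EGLN family mark the alpha subunit for capture by the VHL ubiquitin ligase and destruction, and the asparagine hydroxylase encoded by HIF1AN blocks its contact with coactivators. When oxygen is low these marks are not made, and HIF binds a short DNA core in target genes for blood vessel growth, glycolysis and acid handling. This control acts mostly on the protein, whereas arrays read RNA only. In liver cells the pathway is known for governing erythropoietin and sugar metabolism.

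Values are log2 expression as deposited, so a difference of 1 is a doubling. Differences are given as H2O2 minus untreated, each with its limma standard error except for the gene pairs. Group levels are means ± SD where an SD is shown, n = 4 arrays per group, and a change is called at a Benjamini-Hochberg adjusted p under 0.05 over all genes. The array medians lay between 6.85 and 6.93, and all 9 genes lay above them in both groups. Across all genes 6259 of 18404 (34.0%) were called, with 19.2% rising and 14.8% falling, and the median difference was -0.022. The arrest genes moved with the labels: CDKN1A, a kinase inhibitor that stops the cell cycle, rose by 2.36 and MKI67, a proliferation marker, fell by 1.32. The 6 hepatocyte markers measured, ALB and AFP among them, averaged between 10.95 and 12.66. The 5 endothelial markers all had means over all arrays below the array median. Of these CDH5 fell (-0.25, with means of 6.67 in H2O2-treated and 6.92 in untreated cells), a call lost under 2 of 14 alternative settings. The other 4 did not pass, but PECAM1 rose by 0.52 where the mean of its probe sets was used. The mean linear level of 4 leukocyte markers, given as log2, was higher in H2O2-treated cells, at 8.52 to 8.71, against 7.91 to 8.03 in untreated cells, through CD68 and CD14, whereas the defining leukocyte gene PTPRC averaged 4.09 in H2O2-treated cells and 4.23 in untreated cells. That of 5 fibroblast and stellate markers was 6.84 to 7.06 in H2O2-treated cells, against 7.06 to 7.18 in untreated cells; of these genes PDGFRB fell (-1.15), COL1A1 rose (0.41) and COL1A2, COL3A1 and DCN did not pass. The same level of 6 hepatocyte markers was lower, at 12.00 to 12.15 in H2O2-treated cells, against 12.21 to 12.27 in untreated cells. Of these genes ALB, AFP and APOA1 were lower, and TTR was higher (0.26), a call lost under 4 of 15 alternative settings. APOB (-0.050) and SERPINA1 (0.029) did not pass. All cultures are of 1 line, so these markers are given as RNA levels in HepG2 cultures and not as shares of other cell types. The part of these shifts in the results below was not tested. In a bulk culture fewer cells expressing a gene and less of its RNA per cell cannot be told apart.

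Of the 9 genes, 2 rose, 4 fell and 3 did not pass the test. HIF1A and HIF1AN rose, and EGLN3, VEGFA, VHL and EGLN1 fell. That is 6 of 9 called against 34.0% of all genes. Values of the groups did not overlap for 6 of the 9 genes, against 33.7% of all genes. Among the 7 components of the pathway 2 rose and 3 fell (median difference -0.22), and of the 2 targets measured 1 fell.

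**Figure D1:**
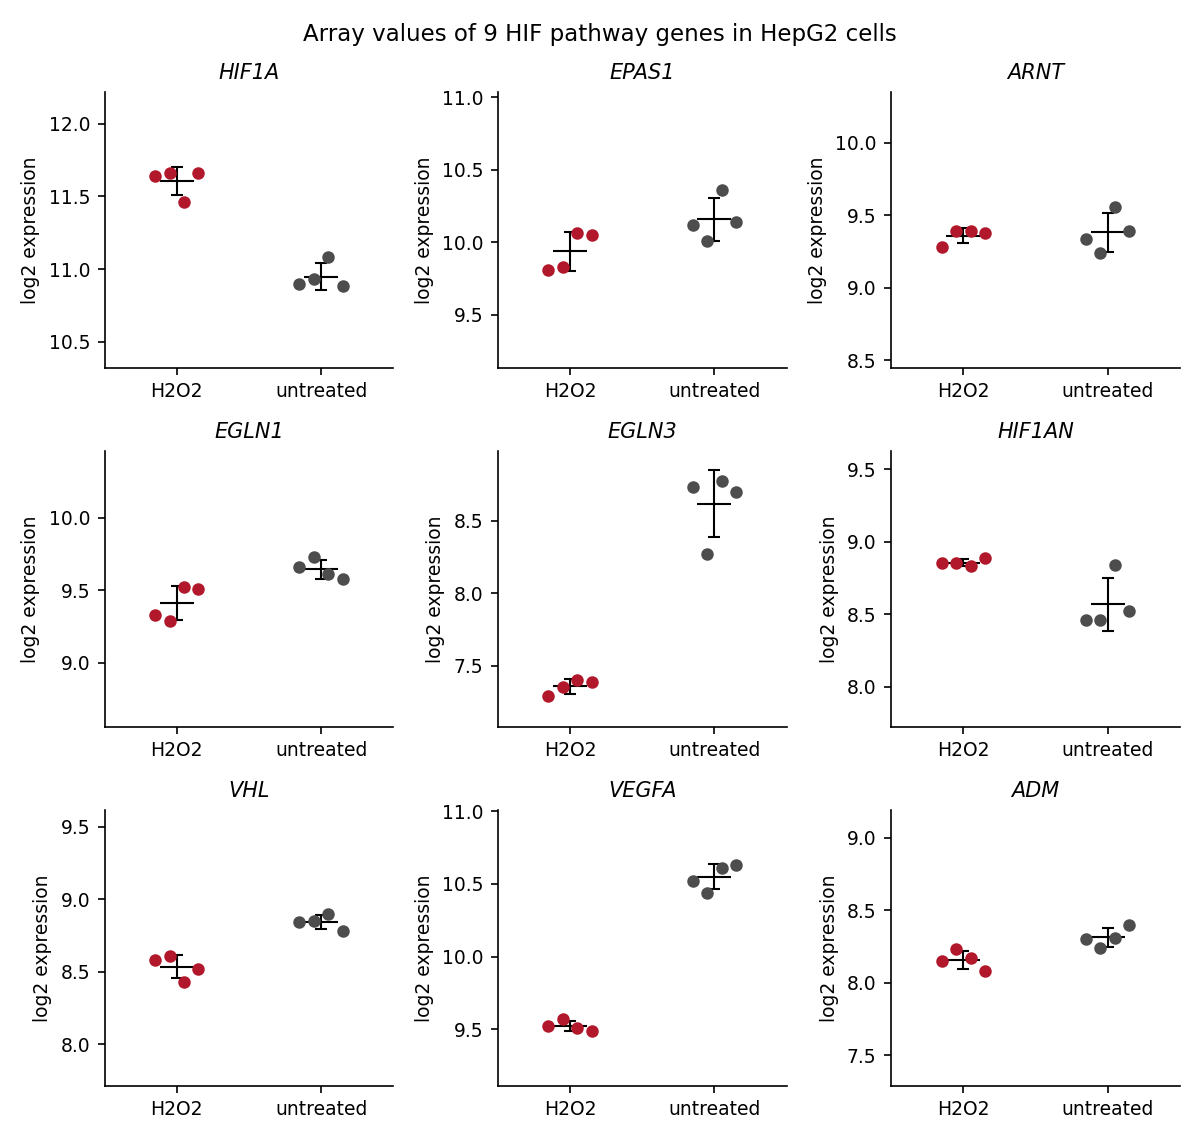
Log2 expression of each of the 9 genes, one panel a gene, all panels spanning the same height in log2 units. Points are arrays (replicates 1 to 4 from left to right), with H2O2-treated cells on the left and untreated cells on the right. The bars give the mean and SD. EGLN3 and VEGFA show the widest gaps, and the groups of ARNT, EPAS1 and HIF1AN overlap.

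The 2 alpha subunits did not move alike. HIF1A, which encodes the broadly expressed alpha subunit, read 11.64, 11.66, 11.46 and 11.66 in H2O2-treated replicates 1 to 4, against 10.90, 10.93, 11.08 and 10.88 in untreated replicates 1 to 4. Every treated array lay above every untreated one, with 0.38 between the nearest values. HIF1A was thus 1.57-fold higher in H2O2-treated cells (difference 0.65 ± 0.074, limma adjusted p = 1.03e-05), a difference larger in size than that of 92.4% of all genes. EPAS1, which encodes HIF-2alpha, the subunit that drives erythropoietin in liver and kidney, read 9.81, 9.83, 10.06 and 10.05 in H2O2-treated cells, against 10.12, 10.01, 10.36 and 10.14 in untreated cells. Its groups overlapped, and the difference of -0.22 ± 0.089 did not pass (limma adjusted p = 0.0788). It passed under 5 of 15 alternatives, with adjusted p from 0.0270 to 0.213 over all of them. ARNT, the shared partner, read 9.28, 9.39, 9.39 and 9.38 in H2O2-treated cells, against 9.34, 9.24, 9.56 and 9.39 in untreated cells. The untreated arrays spanned the treated ones on both sides, and the difference was -0.026 ± 0.076 (95% interval -0.19 to 0.14, limma adjusted p = 0.834).

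The prolyl hydroxylases EGLN1 and EGLN3 are regulators and also known HIF targets, so they belong to both sides of the pathway. The RefSeq sequences of the 250 bases before their starts (GRCh38.p14, gene strand, 5′ to 3′) are shown, as they are targets as well as regulators, beside that of the target ADM, with the core letters of the HIF binding motif, ACGTG or GCGTG on either strand, in capitals.
EGLN1 (chr1:231422288-231422537, minus strand): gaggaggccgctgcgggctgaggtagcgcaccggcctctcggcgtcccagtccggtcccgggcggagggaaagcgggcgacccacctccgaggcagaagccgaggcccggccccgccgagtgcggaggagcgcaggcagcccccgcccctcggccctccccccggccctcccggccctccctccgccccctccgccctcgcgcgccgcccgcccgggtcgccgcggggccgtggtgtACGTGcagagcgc
EGLN3 (chr14:33951075-33951324, minus strand): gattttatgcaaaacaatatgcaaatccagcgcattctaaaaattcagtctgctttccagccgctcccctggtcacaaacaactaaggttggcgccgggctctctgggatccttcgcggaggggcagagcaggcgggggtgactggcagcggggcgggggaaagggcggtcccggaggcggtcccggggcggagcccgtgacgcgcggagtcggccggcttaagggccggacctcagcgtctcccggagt
ADM (chr11:10304823-10305072, plus strand): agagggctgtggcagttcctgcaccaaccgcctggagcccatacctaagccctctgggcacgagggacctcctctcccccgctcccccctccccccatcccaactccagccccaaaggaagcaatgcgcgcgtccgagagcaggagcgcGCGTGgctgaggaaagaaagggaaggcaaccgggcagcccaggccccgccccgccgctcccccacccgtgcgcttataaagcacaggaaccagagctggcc
EGLN1 held 1 match, the letters ACGTG from 13 to 9 bases before the start, EGLN3 held 0, and ADM held 1, the letters GCGTG from 101 to 97 bases before the start. A match is a description only, since 43.2% of 35116 promoter windows of that length held 1 or more of these cores and 18.5% held ACGTG on either strand. Of the other promoters found, HIF1A held 1 match (GCGTG, from 204 to 200 bases before its first listed start, with 0 at its second) and EPAS1 held 1 (GCGTG, from 117 to 113 bases before), whereas ARNT and HIF1AN held 0. Such a window says nothing of sites farther away.

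EGLN3, which encodes PHD3, a family member strongly induced by hypoxia in many cell lines, showed the largest change of the 9 genes. It read 7.29, 7.35, 7.40 and 7.39 in H2O2-treated cells, against 8.73, 8.27, 8.77 and 8.70 in untreated cells. The treated arrays were tightly grouped and all lower than the untreated ones, of which replicate 2 was the lowest. EGLN3 was 2.40-fold lower in H2O2-treated cells (-1.26 ± 0.099, limma adjusted p = 3.75e-07), a difference larger in size than that of 98.5% of all genes. Without untreated replicate 2 it was -1.38. EGLN1, which encodes PHD2, the main oxygen sensor in most cells, read 9.33, 9.29, 9.52 and 9.51 in H2O2-treated cells, against 9.66, 9.73, 9.61 and 9.58 in untreated cells. Its groups lay apart by 0.060, and it fell by 0.23 ± 0.074 (limma adjusted p = 0.0285). That call did not hold under 5 of 15 alternatives, among them leaving out H2O2 replicate 1 or 2, or untreated replicate 1 or 2 (-0.20, -0.19, -0.22 and -0.20).

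VHL, the substrate receptor of the ligase that binds hydroxylated HIF alpha, read 8.58, 8.61, 8.43 and 8.52 in H2O2-treated cells, against 8.84, 8.85, 8.90 and 8.78 in untreated cells. All treated arrays were lower, and VHL fell by 0.31 ± 0.067 (limma adjusted p = 0.00243), to 80.7% of the untreated level. The call held under all 15 alternatives tried. HIF1AN, which encodes FIH, the asparagine hydroxylase, read 8.85, 8.85, 8.83 and 8.89 in H2O2-treated cells, against 8.46, 8.46, 8.84 and 8.52 in untreated cells. Untreated replicate 3 lay within the treated range and the other 3 untreated arrays below it. HIF1AN rose by 0.29 ± 0.086 (limma adjusted p = 0.0184), and by 0.38 without untreated replicate 3. The call was lost without untreated replicate 1, 2 or 4, at 0.25, 0.25 and 0.27.

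Of the targets, VEGFA, the growth factor that starts new blood vessels, read 9.52, 9.57, 9.51 and 9.49 in H2O2-treated cells, against 10.52, 10.44, 10.61 and 10.63 in untreated cells. The treated arrays were all lower, with 0.86 between the nearest values of the groups. VEGFA fell to 49.1% of the untreated level (-1.03 ± 0.067, limma adjusted p = 6.63e-08), and only 1.05% of all genes were called with a fall of that size or more. ADM, which encodes adrenomedullin, a vessel-widening peptide, read 8.15, 8.23, 8.17 and 8.08 in H2O2-treated cells, against 8.30, 8.24, 8.31 and 8.40 in untreated cells. Its groups did not overlap, but the nearest values were 0.015 apart, and the difference of -0.15 ± 0.066 did not pass (95% interval of the difference -0.30 to -0.013, limma adjusted p = 0.0889). It passed under 2 of 15 alternatives, quantile normalization and leaving out dim genes, with adjusted p from 0.0488 to 0.231 over all of them.

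**Figure D2:**
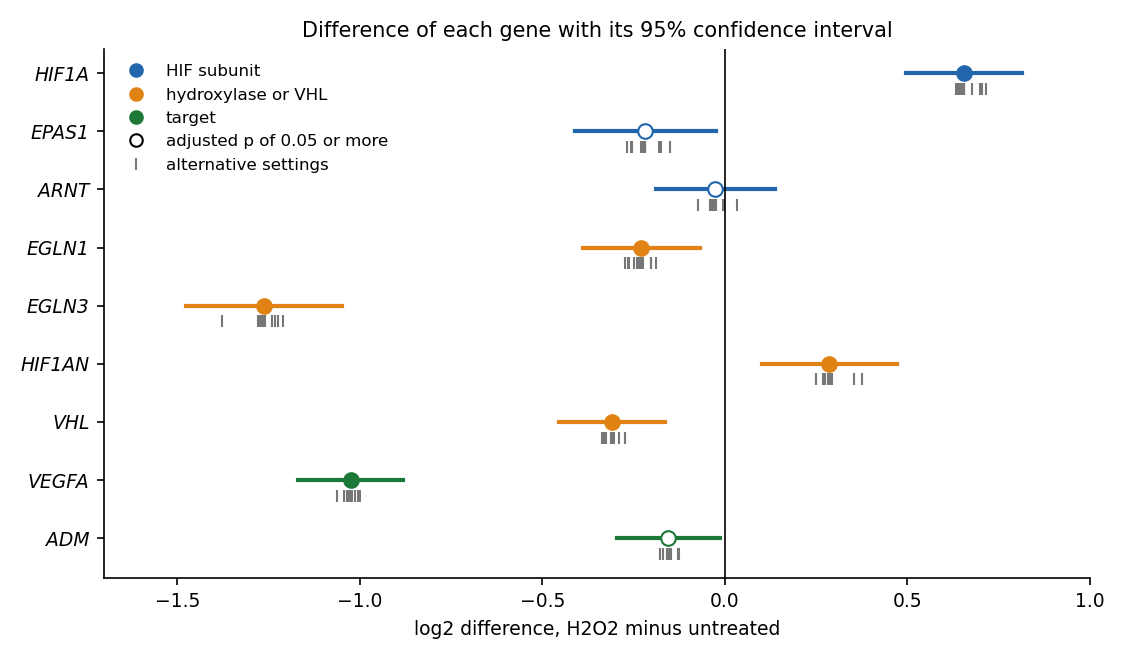
Log2 difference, H2O2 minus untreated, of each of the 9 genes (rows) with its 95% confidence interval from limma; colours give the gene's role, open circles did not pass the test, and grey ticks under each row are the values under the 15 alternative settings. HIF1A and HIF1AN lie to the right of 0, EGLN3 and VEGFA lie near or beyond -1, and the ticks of ARNT fall on both sides of 0.

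Set side by side, components and targets did not fall into separate ranges of change, but this rests on EGLN3, which is also a known target. The components ran between -1.26 (EGLN3) and 0.65 (HIF1A), and both measured targets, at -1.03 and -0.15, lay inside that range. Without EGLN3 the lowest component was VHL at -0.31, so VEGFA lay below every other component and ADM still lay inside their range. Only 2 targets were measured. Close relatives, and the 2 targets, were then compared with each other. In each array the log2 value of the second gene of a pair was subtracted from that of the first, and the groups were compared by an exact two-sided permutation test over 70 splits, adjusted over 3 pairs. The change in EPAS1 minus that in HIF1A was -0.87 ± 0.11, that in EGLN3 minus that in EGLN1 was -1.03 ± 0.15, and that in ADM minus that in VEGFA was 0.87 ± 0.027. The errors of the pairs are plain standard errors from the spread of the per-array values within groups. They are not limma's and cannot be set beside those of single genes. Each pair reached p = 0.0286 in the exact test, adjusted p = 0.0286, the smallest that 4 against 4 arrays can give. The groups did not overlap in any of the 3 pairs, and these tests show unequal change, not that either gene stayed the same. The groups already lay apart for HIF1A, EGLN3 and VEGFA alone. As the pair tests use the same array values, they are not separate evidence.

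**Figure D3:**
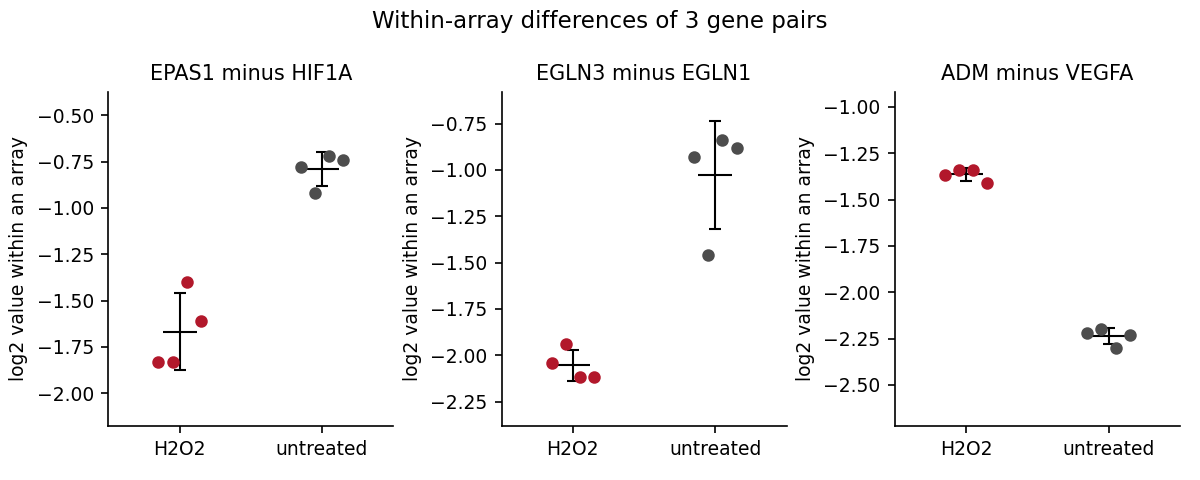
Log2 value of the first gene minus that of the second within each array, for EPAS1 minus HIF1A, EGLN3 minus EGLN1 and ADM minus VEGFA. Points are arrays, H2O2-treated on the left and untreated on the right, with mean and SD; the zero of each axis has no meaning because probe sets differ in brightness, and in each panel the groups lie apart, with ADM minus VEGFA the most tightly grouped.

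Most genes of a wider set of HIF targets were lower in H2O2-treated cells. Of 20 measured target genes of glucose transport and glycolysis 16 fell and 3 rose (median difference -0.52), and of 40 measured targets outside glycolysis 30 fell and 4 rose (median -0.63). Across both lists 46 of 60 fell, against 14.8% of all genes, and 7 rose, against 19.2%. A called fall of VEGFA's size or more was seen in 15 of the 60, against 1.05% of all genes. These lists were chosen with results for some of their genes known, so the counts are a description and carry no test.

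In the list outside glycolysis the largest falls were those of LOX, which cross-links collagen (-3.24 ± 0.11), P4HA1, a collagen prolyl hydroxylase (-1.60 ± 0.091), and EPO, erythropoietin itself (-1.54 ± 0.084). EPO averaged 7.62 in H2O2-treated cells and 9.16 in untreated cells, a 2.92-fold difference in this target of the EPAS1 product. The largest rises were those of the chemokine receptor CXCR4 (1.14 ± 0.087), the growth factor receptor MET (0.43 ± 0.072) and the clock repressor BHLHE41 (0.40 ± 0.069, with a mean over all arrays below the array median). CXCR4 averaged 6.49 in H2O2-treated cells and 5.35 in untreated cells, both below the array median, where a signal above background is not shown. Among glycolytic targets PFKFB4 (-2.01 ± 0.068) and PDK1 (-1.92 ± 0.077), kinases that steer sugar use, and the aldolase ALDOC (-1.67 ± 0.085) fell most. The phosphofructokinase PFKP (0.89 ± 0.084), the hexokinase HK1 (0.53 ± 0.088, below the array median in both groups) and the glucose transporter SLC2A1 (0.44 ± 0.063) rose.

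**Figure D4:**
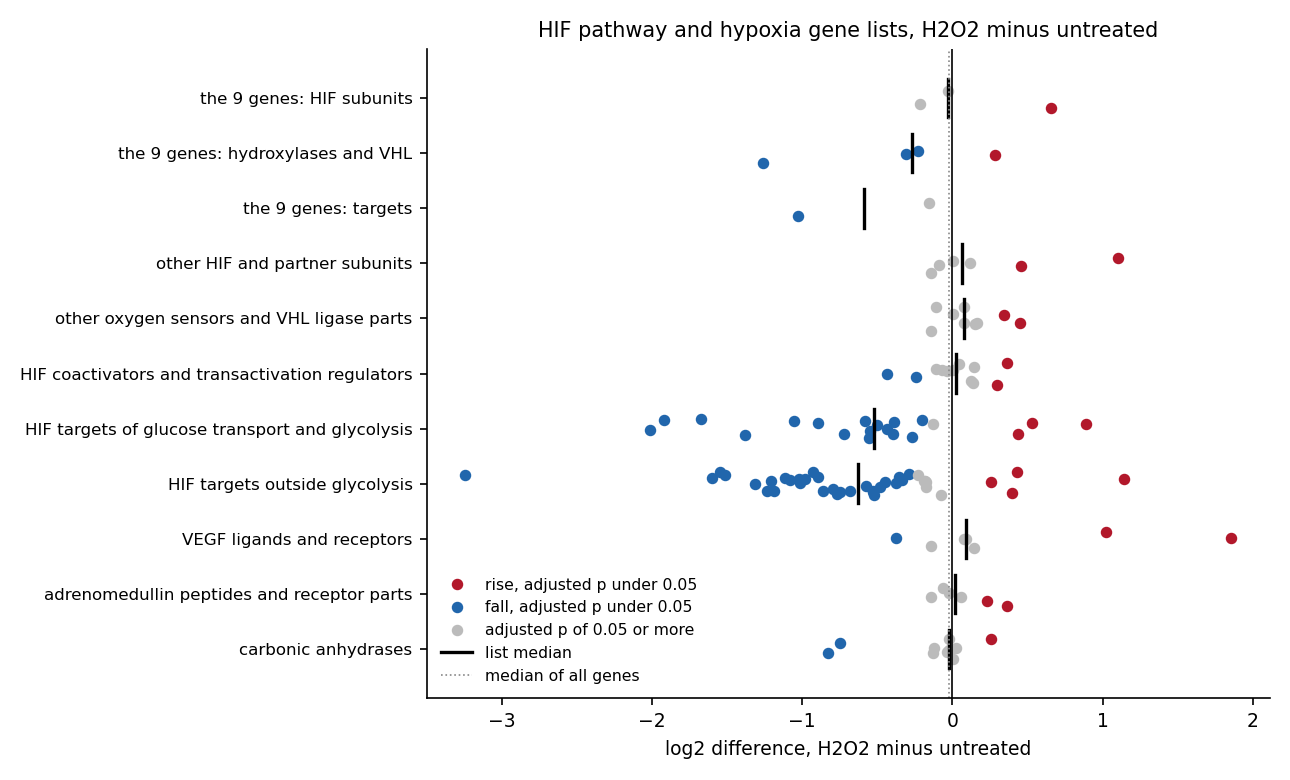
Log2 difference, H2O2 minus untreated, of every measured gene (points) in 11 lists of HIF pathway and hypoxia genes (rows); red and blue points rose and fell at an adjusted p under 0.05, grey points did not pass, thick bars are list medians and the dotted line is the median of all genes. Both target lists lie mostly to the left of 0, and the lists of partner subunits, oxygen sensors and coactivators lie around it.

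The other lists of the pathway and of the targets' families are given below as values beside the shares over all genes (19.2% rising, 14.8% falling), and nothing particular to them is read from their counts. Among 9 other oxygen sensors and VHL ligase parts 2 rose and 0 fell, against 34.0% of all genes called (median 0.077): LIMD1, a scaffold that joins the hydroxylases to VHL (0.45 ± 0.080), and ELOC, which links VHL to its cullin (0.35 ± 0.079). The cullin CUL2 itself differed by 0.0024 ± 0.094 and the ring protein RBX1 by 0.077 ± 0.0996, and neither passed. Of 12 HIF coactivators and regulators of its activity 2 rose and 2 fell, close to the 34.0% of all genes called (median 0.026). MTOR, a growth kinase, rose by 0.36 ± 0.083 and the coactivator NCOA1 by 0.30 ± 0.087. CITED2, a HIF target that competes with HIF for its coactivators, fell by 0.43 ± 0.069. ING4, a chromatin reader, fell by 0.24 ± 0.084. The ING4 call was lost under 6 of 15 alternatives and the NCOA1 call under 2. The coactivators EP300 (-0.036 ± 0.095) and CREBBP (0.045 ± 0.096) did not pass.

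Relatives of the HIF subunits, which belong to the same class of paired transcription factors, gave 2 rises and 0 falls among 6, close to the 34.0% of all genes called. AHR, the dioxin receptor, which also needs ARNT, averaged 10.61 ± 0.075 in H2O2-treated cells and 9.51 ± 0.15 in untreated cells, a rise of 1.10 ± 0.081 (limma adjusted p = 2.00e-07). ARNT2, a close relative of ARNT, rose by 0.45 ± 0.067, with a mean over all arrays below the array median. HIF3A (-0.14 ± 0.080), BMAL1 (0.12 ± 0.083), SIM1 (-0.088 ± 0.071) and SIM2 (0.0046 ± 0.072) did not pass.

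For the families of VEGFA, ADM and CA9 the counts are likewise set beside 19.2% of all genes rising and 14.8% falling. Of 7 other VEGF ligands and receptors 2 rose and 1 fell. VEGFB, a ligand that signals through FLT1, fell by 0.38 ± 0.072, whereas VEGFC (-0.14 ± 0.11) and PGF (0.090 ± 0.079) did not pass. The co-receptors NRP1 and NRP2 rose by 1.86 ± 0.17 and 1.02 ± 0.10, and NRP1 averaged 9.01 in H2O2-treated cells and 7.15 in untreated cells. The kinase receptors FLT1 (0.15 ± 0.092) and KDR (0.075 ± 0.098) did not pass and lay below the array median. Of 6 adrenomedullin relatives and receptor parts 2 rose and 0 fell. The receptor CALCRL rose by 0.36 ± 0.097 at levels far below the array median (4.27 in H2O2-treated cells, 3.91 in untreated cells), and RAMP2, its partner, rose by 0.23 ± 0.077, a call lost under 6 of 15 alternatives. ADM2 (0.057 ± 0.086), RAMP1 (-0.026 ± 0.077), RAMP3 (-0.063 ± 0.066) and CALCR (-0.14 ± 0.0999) did not pass. Of 11 carbonic anhydrases, the enzymes that CA9 belongs to, 2 fell and 1 rose, below the 34.0% of all genes called. CA5A, a mitochondrial form of liver, fell by 0.83 ± 0.088 and CA14 by 0.75 ± 0.10. CA12, a further hypoxia target, rose by 0.26 ± 0.081 at levels below the array median, a call lost under 4 of 14 alternatives.

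Single arrays contributed unevenly to the spread. Untreated replicate 3 gave the highest value of its group for 6 of the 9 genes, HIF1A, EPAS1, ARNT, EGLN3, HIF1AN and VHL, against 30.6% of all genes. It gave the lowest for 0 of the 9, against 34.3% of all genes. Leaving it out moved EPAS1 to -0.15 and HIF1AN to 0.38 and left HIF1A at 0.70 and EGLN3 at -1.21. Over the 8 arrays, which form 2 groups and so give high correlations to any gene that differs between them, the genes most like HIF1A were WDR44 (Pearson's r = 0.998), RALB (r = 0.996) and TMEM30A (r = 0.996). Those most like VEGFA were PPM1H (r = 0.998), CCDC183 (r = 0.998) and BCL6 (r = 0.996).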

How the data were processed

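Total RNA of 8 HepG2 cultures was turned into biotin-labelled sense cDNA and read on whole-transcript arrays, per the labels' protocols. The values are log2 expression per probe set, as deposited by the authors; their summarization and normalization are not given in the sources used here, and limma is named, with no role, per the submitters' processing notes. No scanner file, detection call or build was used, so background is unknown, and precision rests on how many arrays there are.

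Of 32321 probe sets, 19158 carry 1 symbol (1388 several, 11775 none) and gave 18404 genes. Where a gene had more than 1 probe set (637 genes), the brightest by its mean over all arrays stood for it. Groups are those of the sample titles. limma 3.58.1 (R 4.3.3) fitted 1 mean per group over all genes, with empirical Bayes moderation and Benjamini-Hochberg adjustment. The fit was also run on simulated data in which few genes changed, which checks the code and not the calls made here. Pairs of genes were compared by exact permutation, and figures used Python 3.11.15 with pandas 2.3.3 and matplotlib 3.10.9.

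The members and lists were chosen with earlier results of these data known. Named are the 9 genes, in each wider list the called genes with the largest changes (at most 3 in each direction), every gene of the lists of partner subunits, VEGF and adrenomedullin genes, and the 3 genes most correlated with HIF1A and with VEGFA. CUL2, RBX1, EP300 and CREBBP were added after their values were seen. Promoter sequences are those of RefSeq (GRCh38.p14), found for 7 of the 9 genes and not for VHL and VEGFA. Of the listed genes, CA9 and some genes of the wider lists were not analysed here.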

Additional observations from a re-analysis of the deposited data

Results flagged for a closer look

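Of 18 groups of 4 arrays, 3 held an array whose gap to its nearest neighbour took up most of the group's range, where chance flags about 1 group in 20. HIF1A in H2O2 replicate 3, at 11.46, was the lowest of its group. ARNT in H2O2 replicate 1, at 9.28, was likewise the lowest. EGLN3 in untreated replicate 2, at 8.27, lay below the other untreated arrays and still above every H2O2-treated one.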

How the results depend on the processing

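The alternatives were the replicate number as a block, quantile normalization, centring on array medians, leaving out dim genes, the mean of a gene's probe sets, array weights, a trended robust variance prior and leaving out each array. HIF1A, EGLN3, VHL and VEGFA kept direction and call under all 15. ARNT, never called, ran from -0.073 to 0.033. With array weights 8373 genes were called in place of 6259, with 4111 falls in place of 2732. With dim genes left out, 11 in place of 17 rises remained among the wider lists. The rises lost were those of ARNT2, HK1, CA12, BHLHE41, CXCR4 and CALCRL. Their means over all arrays lay below the array median, so they were left out. Leaving out single arrays gave 5404 to 6755 calls among all 18404 genes, with 3110 to 3686 rises and 2228 to 3069 falls. Among the 9 genes it gave 4 to 7 calls, with 1 to 2 rises and 3 to 5 falls. The lower count of rises came without untreated replicate 1, 2 or 4, where HIF1AN lost its call. Why these arrays weigh on HIF1AN was not tested. The pair differences kept their direction without any single array. As the groups of each pair do not overlap, they stay apart when an array is dropped, so repeating the exact test adds no support. Same-numbered arrays did not deviate together (correlations of deviations -0.068, 0.060, -0.25 and 0.094, and no H2O2 array correlated best with the untreated array of its number). The numbers are therefore used here only to name arrays. Whether same-numbered cultures were handled together cannot be told from these correlations. With the replicate block 5758 genes were called, among them 6 of the 9, as EPAS1 (-0.22, limma adjusted p = 0.0481) passed and EGLN1 (-0.23, limma adjusted p = 0.0686) did not.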
